A study of Homo sapiens with 6 samples.

Results

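Genes of thiamine (vitamin B1) transport and use, or of the same carrier family, were followed through RNA sequencing of PLC/PRF/5, an established human hepatocellular carcinoma line. They are the carriers SLC19A1, SLC19A2 and SLC19A3 and the enzymes THTPA and TKT, found by symbol as 5 of the 60623 rows of the deposited tables, 1 row each. The cells had received a lentiviral vector, either one labelled to overexpress ZFP64, a zinc finger transcription factor, or a control vector, with 3 libraries in each group; no further treatment is named. Whether either line is a clone or a pool, and whether replicates are separate cultures, is not given in the sources used here, so any p-value reflects spread among these 6 libraries alone, which may be technical. The 5 genes were chosen with the difference between these groups already known. Their levels and fold changes are therefore given as a description, without p-values.

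Human cells cannot make thiamine and take it up through SLC19A2 and SLC19A3, a pair of high-affinity carriers of the plasma membrane. Inside the cell it is converted to thiamine diphosphate, the cofactor of transketolase in the cytosol, of 2-hydroxyacyl-CoA lyase in peroxisomes and of the pyruvate, 2-oxoglutarate and branched-chain ketoacid dehydrogenases in mitochondria. The liver stores and uses much of the body's thiamine. Loss of SLC19A2 causes thiamine-responsive megaloblastic anaemia and loss of SLC19A3 causes biotin-thiamine-responsive basal ganglia disease.

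The targeted gene went against the labels, so each group is called by its label throughout. Whether the labels or columns were exchanged was not tested, and an exchange would turn every direction given here. Higher, lower, rise and fall state only where the libraries carrying the ZFP64-OE label lie relative to those carrying the control label. ZFP64 had 1314, 1385 and 1112 counts in the ZFP64-OE-labelled libraries and 3620, 6157 and 4552 in the control-labelled ones. ZFP64 was therefore 4.31-fold higher where the label reads control (log2 fold change -2.11, ZFP64-OE label over control label as throughout; standard error, SE, 0.0867; edgeR adjusted p = 2.31e-12). Libraries held between 26468949 and 39739674 counts. FPKM is the authors' level per gene length and library depth. Of 9 hepatocyte markers 8 were tested; APOB and SERPINA1 were the most abundant, ALB, APOB, AFP and FGB were called higher and SERPINA1 lower, and TTR, a plasma carrier of thyroid hormone, was near 0 (means of 0.0154 and 0.0349 FPKM). Of all genes tested, 1.78% were called higher and 4.03% lower. Markers of other cells were low. The summed level of 9 macrophage markers was 0.144 to 0.227 FPKM in the ZFP64-OE-labelled libraries and 0.194 to 0.300 FPKM in the control-labelled ones; PTPRC and TYROBP were at 0 and the highest were CSF1R and ITGAM. The 9 fibroblast markers summed to 0.853 to 1.06 against 1.39 to 1.48 FPKM, with COL1A2 and POSTN at 0 and PDGFRB and COL3A1 highest, and the 8 endothelial markers to 0.555 to 0.814 against 1.67 to 1.81 FPKM, with KDR, TEK and ERG at 0 and PECAM1 and CDH5 highest. Mitochondrially encoded mRNAs, of which MT-CO2 and MT-ND4L had the highest FPKM, took more of the counts. Their share was 3.19% to 4.38% in the ZFP64-OE-labelled libraries and 1.87% to 2.69% in the control-labelled ones. Among these mRNAs 5 of 13 were called higher, where 1.78% of all genes tested were. Of the fibroblast markers 1 of 3 tested was called, COL3A1, which was lower (log2 fold change -2.28, edgeR adjusted p = 3.79e-07). Of the endothelial markers 1 of 2 tested was called, PECAM1, also lower (log2 fold change -1.49, edgeR adjusted p = 5.46e-07). The fibroblast, endothelial and mitochondrial sums moved with the groups, and their part in the differences below was not tested.

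The 300 bases around the transcription starts of SLC19A3 and SLC19A2 are shown because these were the members that were lower together; motif counts for all 5 follow. Capitals mark ACGTG and GCGTG on either strand, the core letters that hypoxia-inducible factors bind; SLC19A3 is known as a hypoxia-inducible gene in human cancer cell lines. Sequences are from RefSeq on GRCh38.p14, minus strand, at chr2:227717979-227718278 for SLC19A3 and chr1:169485921-169486220 for SLC19A2, read 5′ to 3′.
SLC19A3: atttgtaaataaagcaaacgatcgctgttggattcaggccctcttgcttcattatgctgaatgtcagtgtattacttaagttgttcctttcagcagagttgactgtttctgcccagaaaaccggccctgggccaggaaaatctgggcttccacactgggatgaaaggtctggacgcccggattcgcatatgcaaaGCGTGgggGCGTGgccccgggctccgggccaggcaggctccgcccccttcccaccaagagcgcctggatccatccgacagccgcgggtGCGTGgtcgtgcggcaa
SLC19A2: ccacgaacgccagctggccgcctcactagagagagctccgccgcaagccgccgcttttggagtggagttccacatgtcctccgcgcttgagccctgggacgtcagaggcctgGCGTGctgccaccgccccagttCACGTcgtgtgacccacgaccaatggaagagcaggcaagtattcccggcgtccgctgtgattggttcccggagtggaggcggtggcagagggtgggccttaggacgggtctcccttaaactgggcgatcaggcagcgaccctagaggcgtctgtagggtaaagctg
The SLC19A3 window holds GCGTG 3 times, at positions 196, 204 and 284 counted from its 5′ end, and ACGTG nowhere. The SLC19A2 window holds GCGTG at position 113 and ACGTG, on the opposite strand, at position 135. Of 35116 RefSeq windows of this length, 48.4% hold at least 1 of these motifs on either strand, 23.1% hold at least 2 and 10.1% hold at least 3. Each window also holds 1 GGGCGG, the GC box bound by Sp1, which 45.0% of all windows contain. The SLC19A3 window was 57% G or C and that of SLC19A2 64%, against a median of 58.7% over all windows. Another SLC19A2 start in RefSeq lies 26 bases away and its window holds the same motifs. Members that were not called hold these motifs too. SLC19A1 has 4 listed starts, with 3 GCGTG in the window at chr21:45542391-45542690, 3 GCGTG and 2 ACGTG in that at chr21:45541797-45542096, 1 ACGTG in another and none in the last. THTPA has 2 GCGTG in 1 of its 2 windows, and the TKT window has none. Whether these motifs relate to the differences between the groups was not tested. Neither window shown holds the E-box CACGTG, present in 7.26% of windows, of which ACGTG is a part; the SLC19A1 window with 2 ACGTG holds 1. These matches describe letters and say nothing of binding.

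SLC19A3, the thiamine transporter THTR2, was the member with the largest difference between the groups. It had 505, 503 and 445 counts in the ZFP64-OE-labelled libraries and 740, 1211 and 963 in the control-labelled ones. Its level was 1.70, 1.64 and 1.64 FPKM in the ZFP64-OE-labelled libraries and 3.61, 4.18 and 3.96 FPKM in the control-labelled ones. Every ZFP64-OE-labelled library lay below every control-labelled library, and the ZFP64-OE-labelled libraries were nearly level with each other. The means were 1.66 ± 0.0381 and 3.92 ± 0.284 FPKM (SD, n = 3 each). In the edgeR fit over all genes, on TMM-scaled counts, SLC19A3 was 2.30-fold higher in the control-labelled libraries (log2 fold change -1.20, SE 0.0869). Of the 19173 genes tested, 1.15% had a lower log2 fold change. SLC19A3 lies on chromosome 2 from 227683763 to 227718031 (GRCh38, minus strand), where no other annotated gene overlaps it. In bulk RNA a lower level can reflect fewer cells with the transcript or less of it per cell, which cannot be told apart.

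SLC19A2, the thiamine transporter THTR1, was the more abundant of the 2 thiamine transporters and was also lower, by much less. It was measured at 8.34, 8.71 and 8.50 FPKM in the ZFP64-OE-labelled libraries and at 10.2, 10.5 and 10.5 FPKM in the control-labelled ones. The groups did not overlap, and the libraries of each lay close together (8.52 ± 0.184 and 10.4 ± 0.184 FPKM, SD, n = 3 each). This is a log2 fold change of -0.26 (SE 0.0751), 1.19-fold on a linear scale. It rests on 1395, 1510 and 1302 counts against 1178, 1723 and 1440. SLC19A2 lies on chromosome 1 from 169463909 to 169486003 (minus strand) and overlaps a processed pseudogene on the same strand, whose reads cannot be told apart where they overlap.

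**Figure D1:**
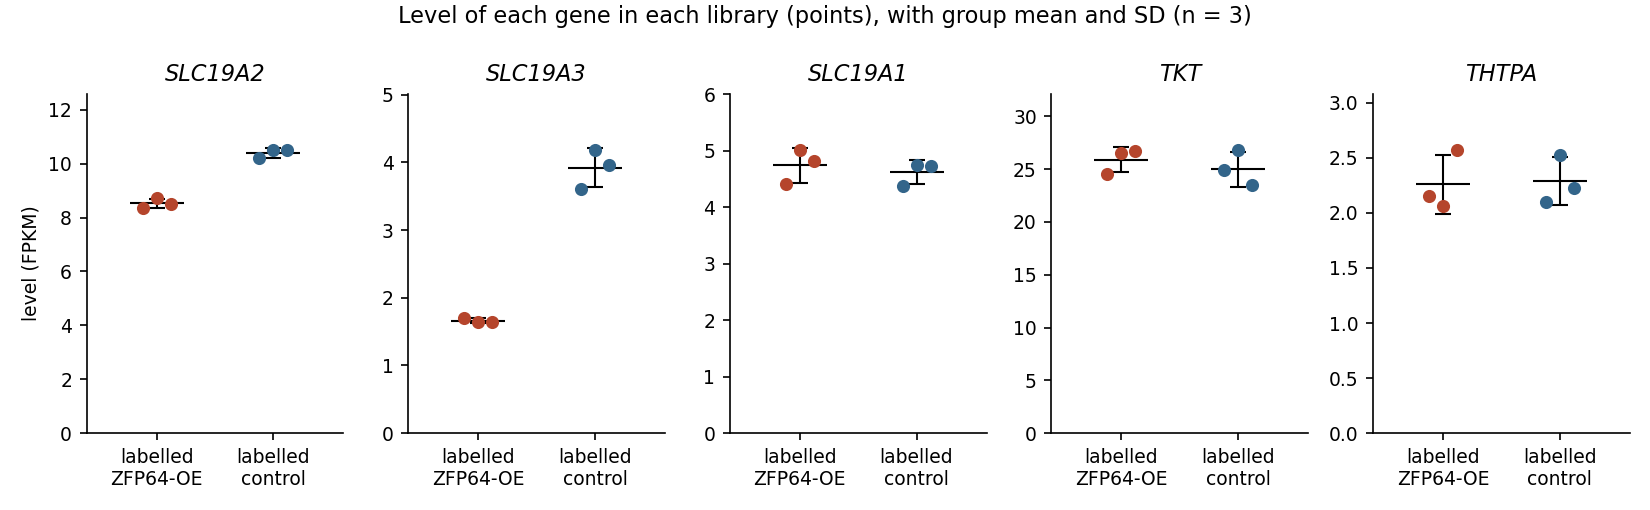
Level of each gene in FPKM (vertical axes, each from 0) in each of the 6 libraries (points), with the group mean and SD as bars (n = 3). SLC19A3 and SLC19A2 lie lower in all 3 ZFP64-OE-labelled libraries, and the points of SLC19A1, TKT and THTPA overlap between groups.

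SLC19A2 and SLC19A3 were the members called in the fit over all genes: 2 of 5 passed an adjusted p of 0.05, both lower, where 4.03% of all genes tested were called lower, 1.78% higher and 5.81% in either direction. Both also had groups that did not overlap in scaled counts, lower in the ZFP64-OE-labelled libraries, as did 12.8% of all genes tested, while 9.16% did not overlap and were higher. Since the members were chosen on this contrast, nothing is read from these counts. Over 13 other settings the log2 fold change of SLC19A3 was -1.23 to -0.89 and that of SLC19A2 -0.29 to -0.23. These settings reuse the values that chose the genes, so they describe only how the numbers vary with the processing and add no support. SLC19A3 was past the threshold in all 13 and SLC19A2 in 4. SLC19A2 was not called by DESeq2, with RLE scaling, without a filter on low counts, or when any 1 of the 6 libraries was left out.

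**Figure D2:**
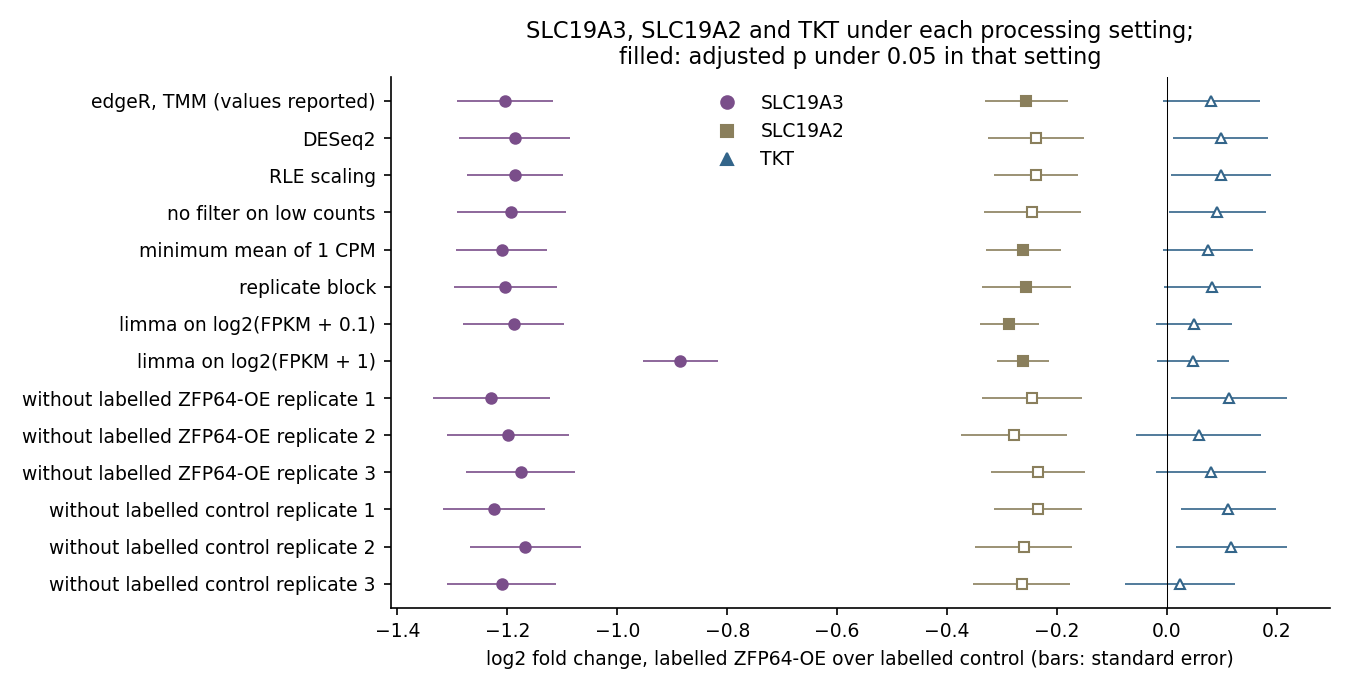
Log2 fold change (horizontal axis; bars are standard errors) of SLC19A3, SLC19A2 and TKT in the fit reported here and 13 other settings (vertical axis); filled symbols passed an adjusted p of 0.05 in that setting. SLC19A3 stays between -1.23 and -0.89 and is always filled, SLC19A2 stays between -0.29 and -0.23 and is filled in the fit reported here and 4 others, and TKT stays near 0 and is never filled.

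Because the transporters differed by unequal amounts, their balance within a library differed too. SLC19A2 was 4.90, 5.32 and 5.19 times the FPKM of SLC19A3 in the ZFP64-OE-labelled libraries and 2.82, 2.52 and 2.65 times in the control-labelled ones. Within a library this ratio does not depend on its depth. SLC19A3 made up 17.0%, 15.8% and 16.2% of the summed FPKM of both transporters in the ZFP64-OE-labelled libraries and 26.2%, 28.4% and 27.4% in the control-labelled ones. The sum itself was 10.2 ± 0.153 against 14.3 ± 0.464 FPKM (SD, n = 3 each). The groups did not overlap in the sum, which was fixed by both transporters being lower without overlap. Both were chosen on this contrast, so the ratio, share and sum restate their levels and are no separate observation.

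**Figure D3:**
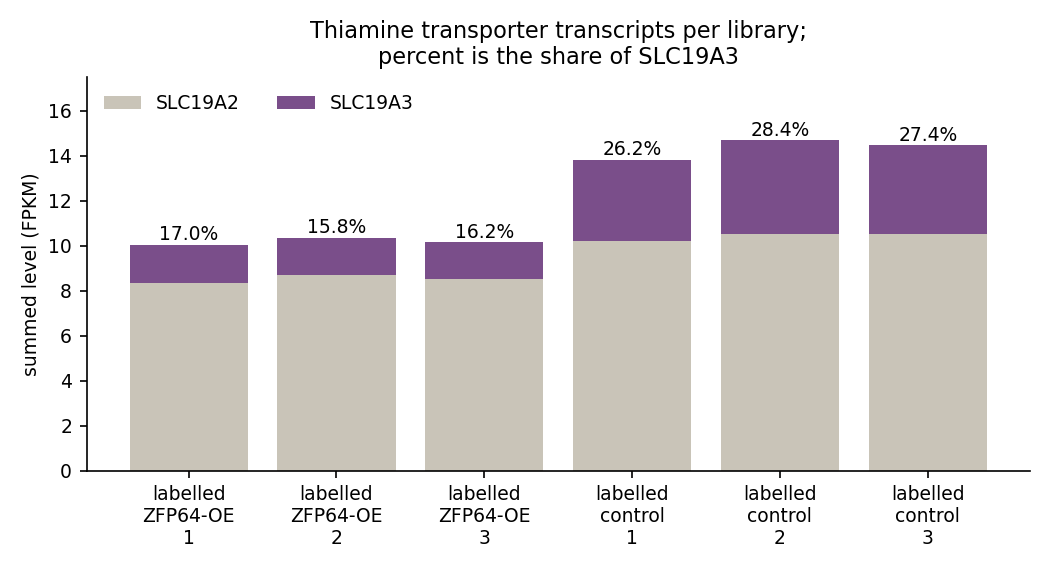
Summed FPKM of SLC19A2 and SLC19A3 (vertical axis, stacked bars from 0) in each library, with the share of SLC19A3 above each bar. The share is 15.8% to 17.0% in the ZFP64-OE-labelled libraries and 26.2% to 28.4% in the control-labelled ones. The bars restate the levels of SLC19A2 and SLC19A3 and are no separate observation.

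SLC19A1, the reduced folate carrier, belongs to the same family but carries folates and phosphorylated forms of thiamine rather than free thiamine. It was measured at 4.41, 5.01 and 4.81 FPKM in the ZFP64-OE-labelled libraries and 4.38, 4.75 and 4.73 FPKM in the control-labelled ones. The groups overlapped. The difference was not called (log2 fold change 0.07, SE 0.0767). SLC19A1 (chromosome 21, 45493572 to 45544411, minus strand) overlaps COL18A1, a collagen gene on the plus strand that was lower in the ZFP64-OE-labelled libraries (log2 fold change -0.45, SE 0.0812, edgeR adjusted p = 0.00129). The strand setting of the counting is not stated, so reads in the overlap could belong to either gene.

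Transketolase, encoded by TKT, uses thiamine diphosphate to move carbon units between sugars in the non-oxidative pentose phosphate pathway. TKT was the most abundant member, at 24.5, 26.5 and 26.7 FPKM in the ZFP64-OE-labelled libraries and 24.9, 26.8 and 23.5 FPKM in the control-labelled ones. The ranges overlapped widely. The difference was not called (log2 fold change 0.08, SE 0.0882), with 8891 to 9998 counts per library in the first group and 6252 to 9529 in the second. TKT lies on chromosome 3 from 53224707 to 53256052 (minus strand) with no overlapping gene.

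THTPA, the phosphatase that removes a phosphate from thiamine triphosphate, was the least deeply counted member, with 161 to 274 counts per library. It was at 2.15, 2.06 and 2.57 FPKM in the ZFP64-OE-labelled libraries and 2.10, 2.53 and 2.23 FPKM in the control-labelled ones. The groups overlapped, and the difference was not called (log2 fold change 0.01, SE 0.128, the widest of the 5). THTPA (chromosome 14, 23555988 to 23560271, plus strand) overlaps ZFHX2 and AP1G2 on the minus strand and ZFHX2-AS1 on its own strand, so its count may include reads of these genes.

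Ordered by FPKM, TKT came first, then SLC19A2 and then SLC19A1 in every library. SLC19A3 and THTPA traded the last places. In the control-labelled libraries SLC19A3 (at least 3.61 FPKM) was above THTPA (at most 2.53 FPKM), and in the ZFP64-OE-labelled ones THTPA (at least 2.06 FPKM) was above SLC19A3 (at most 1.70 FPKM). No neighbours in the order overlapped within a group. The closest were SLC19A1 and SLC19A3 in the control-labelled libraries, whose means differed 1.18-fold, with a lowest value of 4.38 FPKM for SLC19A1 and a highest of 4.18 FPKM for SLC19A3. In the ZFP64-OE-labelled libraries the same means differed 2.86-fold.

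Other thiamine-handling genes showed 1 fall among 6 measured, where 4.03% of all genes tested were called lower and 1.78% higher. The gene that fell was ACP3, an acid phosphatase known in mouse sensory neurons as the thiamine monophosphatase. ACP3 was at 0.646, 0.700 and 0.479 FPKM in the ZFP64-OE-labelled libraries and 1.79, 1.65 and 1.74 FPKM in the control-labelled ones, with no overlap. Lower scaled counts without overlap were found for 12.8% of all genes tested. ACP3 differed 2.75-fold (log2 fold change -1.46, SE 0.156, edgeR adjusted p = 3.06e-06; highest adjusted p over the 13 other settings 0.00672). The organic cation carriers SLC47A1 and SLC47A2, which can carry thiamine, did not pass, with log2 fold changes of 0.23 and 0.48 and standard errors of 0.134 and 0.371. SLC44A4, SLC35F3 and SLC22A2 had too few counts to be tested. The list's median log2 fold change was 0.11, against -0.02 for all genes tested.

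The enzymes that use thiamine diphosphate, with the partner subunits of their complexes, held 1 fall among 13 measured. Of all genes tested, 4.03% were called lower and 1.78% higher. ILVBL, a membrane-bound 2-hydroxyacyl-CoA lyase, was at 11.4, 13.7 and 13.5 FPKM in the ZFP64-OE-labelled libraries and 15.6, 18.9 and 16.2 FPKM in the control-labelled ones, without overlap. ILVBL differed 1.28-fold (log2 fold change -0.36, SE 0.0884, edgeR adjusted p = 0.0175). Leaving out ZFP64-OE-labelled replicate 1 or control-labelled replicate 2 ended this call, at an adjusted p of 0.122 and 0.120, and leaving out control-labelled replicate 1 gave 3 calls in the list, 2 of them higher; over all 13 other settings the adjusted p ranged from 0.000175 to 0.122. PDHA1, PDHB, OGDH, DLST, DLD, BCKDHB, DBT, DHTKD1 and HACL1 did not pass, with log2 fold changes between -0.15 for BCKDHB and 0.19 for DBT. DLAT and PDHX, the acetyltransferase and binding protein of the pyruvate dehydrogenase complex, were named after their values were seen. DLAT was at 69.2 ± 1.76 and 59.1 ± 1.15 FPKM and PDHX at 24.6 ± 1.02 and 21.3 ± 0.862 FPKM (SD, n = 3 each), with groups that did not overlap, and neither passed (edgeR adjusted p = 0.0882 and 0.0991). In scaled counts, 21.9% of all genes tested had groups that did not overlap. OGDHL did not pass (log2 fold change 0.12, SE 0.223). BCKDHA, a subunit of the branched-chain ketoacid dehydrogenase, was too low to be tested, as were the transketolase-like genes TKTL1, at 0 in every library, and TKTL2, and PDHA2 was also at 0.

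No gene passed among 9 kinases, phosphatases and regulators of these dehydrogenases by edgeR, with 1 at an unadjusted p under 0.05 and 0 called by DESeq2 or by limma on log2(FPKM + 0.1). The list's most abundant members by counts, PDK3 and PDK1, which switch off pyruvate dehydrogenase, had log2 fold changes of 0.01 and -0.11 (standard errors 0.0930 and 0.0866). The gene at an unadjusted p under 0.05 was PDK4, another kinase of this family, named after its values were seen. PDK4 was at 7.32, 7.30 and 7.05 FPKM in the ZFP64-OE-labelled libraries and 9.65, 8.24 and 8.97 FPKM in the control-labelled ones, without overlap (log2 fold change -0.28, SE 0.0872, edgeR adjusted p = 0.0718). Such a separation, lower and in scaled counts, was seen for 12.8% of all genes tested. The list's count of calls was 1, a fall, without control-labelled replicate 2 and with the replicate number in the fit. Nor did any of 13 genes of the pentose phosphate pathway pass by edgeR, again with 1 at an unadjusted p under 0.05 and 0 by DESeq2 or limma. PGD, an enzyme of its oxidative branch, was at 163 ± 6.90 and 180 ± 6.78 FPKM (SD, n = 3 each). Its log2 fold change was -0.11 (SE 0.0949). TALDO1, the transaldolase that works beside transketolase, had a log2 fold change of -0.07 (SE 0.0836). Of all genes tested, 5.81% were called by edgeR.

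**Figure D4:**
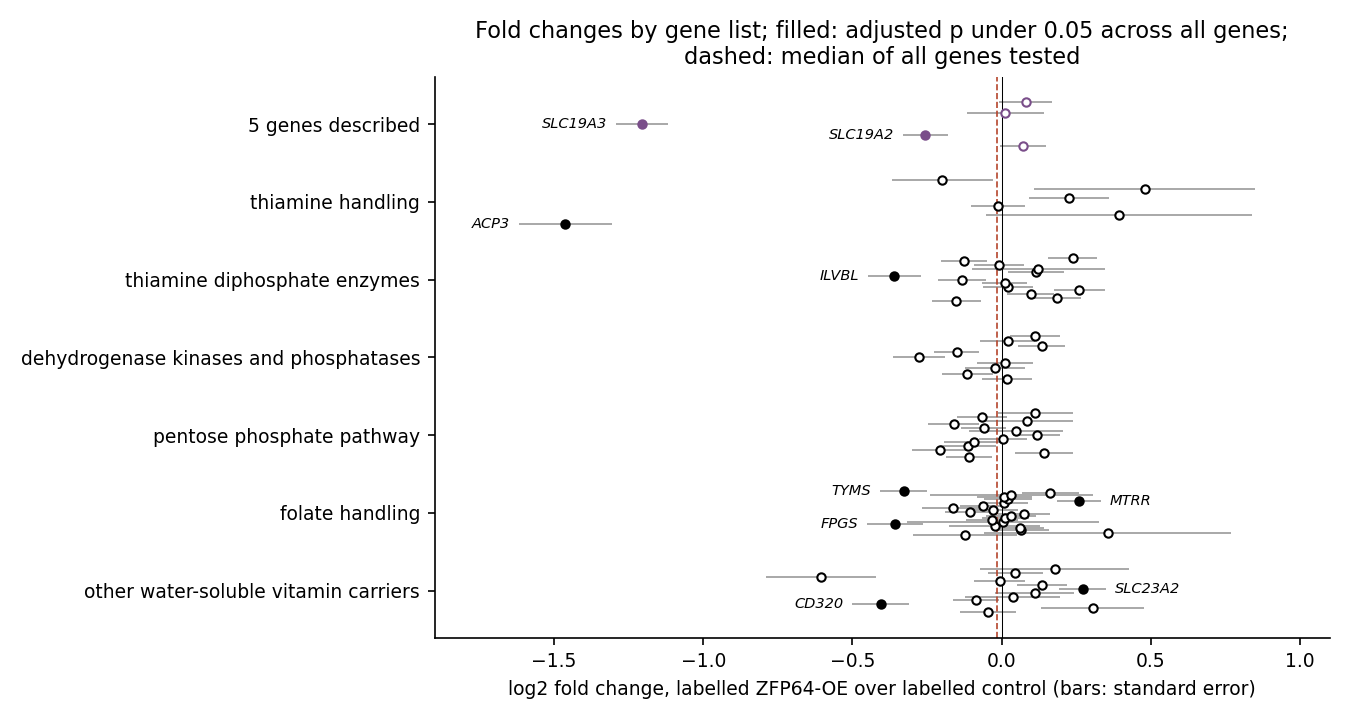
Log2 fold change (horizontal axis; bars are standard errors) of the 5 genes described and of the tested genes of 6 lists (vertical axis); filled symbols passed an adjusted p of 0.05 across all genes, and the dashed line is the median of all genes tested, -0.02. SLC19A3 at -1.20 and ACP3 at -1.46 lie apart from the other genes shown, whose log2 fold changes are between -0.61 and 0.48.

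Folate genes, listed for their link to SLC19A1, had 2 falls and 1 rise among 22 measured, and 19 did not pass. Of all genes tested, 4.03% were called lower and 1.78% higher. TYMS, thymidylate synthase, was at 18.7, 17.7 and 20.2 FPKM in the ZFP64-OE-labelled libraries and 25.0, 24.2 and 23.5 FPKM in the control-labelled ones (log2 fold change -0.33, SE 0.0800, edgeR adjusted p = 0.0163). FPGS, which adds glutamates that hold folate in the cell, was at 7.72 ± 0.903 and 10.1 ± 1.16 FPKM (log2 fold change -0.36, edgeR adjusted p = 0.0259). MTRR, which keeps methionine synthase active, was at 11.2 ± 0.226 and 9.60 ± 0.606 FPKM (SD, n = 3 each; log2 fold change 0.26, edgeR adjusted p = 0.0453). For each of these genes all libraries of one group lay on one side of the other group, as in scaled counts for 21.9% of all genes tested. The calls depended on single libraries: with 1 library left out, the adjusted p reached 0.122 for TYMS, 0.184 for FPGS and 0.228 for MTRR, and the 3 calls came down to 1 without ZFP64-OE-labelled replicate 1 or control-labelled replicate 1 or 2, and to 0 without ZFP64-OE-labelled replicate 2. The proton-coupled folate transporter SLC46A1 did not pass (log2 fold change 0.16, SE 0.0963), and the folate receptors FOLR1, FOLR2 and FOLR3 were too low to be tested.

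Carriers of other water-soluble vitamins had 1 fall and 1 rise among 12 measured, where 4.03% of all genes tested were called lower and 1.78% higher. CD320, the receptor that takes up vitamin B12 bound to transcobalamin, was at 14.5, 17.7 and 20.3 FPKM in the ZFP64-OE-labelled libraries and 22.3, 25.4 and 23.4 FPKM in the control-labelled ones (log2 fold change -0.40, SE 0.0953, edgeR adjusted p = 0.0131). SLC23A2, a vitamin C transporter, was at 9.53, 9.21 and 8.71 FPKM in the ZFP64-OE-labelled libraries and 7.76, 7.92 and 7.60 FPKM in the control-labelled ones (log2 fold change 0.27, SE 0.0783, edgeR adjusted p = 0.0454). Neither gene's groups overlapped. In scaled counts, 12.8% of all genes tested lay lower without overlap and 9.16% lay higher without overlap. With 1 library left out the adjusted p reached 0.0850 and 0.204, and neither was called without ZFP64-OE-labelled replicate 1 or control-labelled replicate 2; the rise was also not called without ZFP64-OE-labelled replicate 2 or control-labelled replicate 3. The biotin and pantothenate transporter SLC5A6 and the riboflavin transporter SLC52A2 did not pass, with log2 fold changes of 0.05 and -0.01 (standard errors 0.0918 and 0.0858). The other riboflavin transporter tested, SLC52A3, did not pass either (log2 fold change -0.61, SE 0.185, edgeR adjusted p = 0.0602).

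Solute carriers were taken as genes whose symbol starts with SLC, then a number and a letter, which leaves out the SLCO genes. Among the 284 of these that were tested, 15 were called higher and 23 lower, where 1.78% and 4.03% of all genes tested were. Their median log2 fold change was 0.03. Of the 240 with a mean of at least 1 CPM (counts scaled to library depth), 3 had a lower log2 fold change than SLC19A3. The nearest tested protein-coding genes on chromosome 2 did not pass. CCL20, a chemokine gene 87707 bases from SLC19A3, was at 151 ± 22.1 and 194 ± 26.6 FPKM (SD, n = 3 each; log2 fold change -0.32, edgeR adjusted p = 0.0766), and AGFG1, 122548 bases away on the other side, differed less (log2 fold change 0.08, edgeR adjusted p = 0.675). The protein-coding genes whose profiles over the 6 libraries were most like that of SLC19A3 were SAMD11, CGNL1 and PDGFB, out of 11914 compared. Their centred log2 CPM differed from those of SLC19A3 by a root mean square of 0.0524, 0.0539 and 0.0702. Their log2 fold changes were -1.14, -1.25 and -1.16; being chosen for likeness over these same libraries fixes a group difference close to that of SLC19A3, so this is no separate observation.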

How the data were processed

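Per the labels' protocols, Trizol was used for the RNA and an Illumina TruSeq kit for the libraries. The submitters' processing notes name HISAT2 and GRCh38. For the aligner's version, the counting program, the annotation and the strand setting, the answer is not given in the sources used here. The deposited count table holds raw counts per Ensembl gene. The deposited FPKM table follows from those counts: for all 24388 genes counted in every library, both tables gave 1 gene length (relative tolerance 1e-06). Columns were matched to samples by the codes in the titles.

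Counts were tested with edgeR 4.0.16 (R 4.3.3): filterByExpr (minimum count 10, total 15), TMM scaling, robust quasi-likelihood F-test on group, and Benjamini-Hochberg adjustment over 19173 genes at 0.05. Each standard error (SE) was taken as the absolute log2 fold change over the square root of F. Scripts were tested on simulated data. Alternatives were DESeq2 1.42.0, RLE scaling, 2 other filters, the replicate number as a block, limma 3.58.1 on log2(FPKM + 0.1) or log2(FPKM + 1), and each library left out. Gene positions are from GENCODE 29 (GRCh38) and promoters from RefSeq (GRCh38.p14), which held all 5 members.

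The members and lists were chosen with earlier results of these data known. Genes named are the members, ZFP64, up to 4 called genes of each of 6 lists by smallest p (or, with none, the 2 most abundant by CPM), the 2 highest marker genes of each marker list by FPKM, and, for members that average 1 CPM or more and have an absolute log2 fold change of at least 0.5, the 3 protein-coding genes (averaging 1 CPM or more) with the smallest root-mean-square difference; uncalled list genes, SLC genes and neighbours were added afterwards. Some list genes are counted but not reported here by name.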

Additional observations from a re-analysis of the deposited data

How the results depend on the processing

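The SLC19A3 value ranged from -1.23 to -1.17 with 1 library left out and was -0.89 with limma on log2(FPKM + 1), which understates changes of low genes; the other members' values moved by less than the spread between replicates. Leaving out 1 library gave log2 fold changes from -0.28 to -0.23 for SLC19A2, 0.02 to 0.12 for SLC19A1, -0.07 to 0.08 for THTPA, 0.02 to 0.12 for TKT and -2.14 to -2.04 for ZFP64. Scaling FPKM by the TMM factors moved no member's group mean by more than 1 SD.

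Calls over all genes were 1114. They were 2096 with the replicate block, 470 with limma on log2(FPKM + 0.1) and 439 with limma on log2(FPKM + 1), and 587 to 1535 with 1 library left out (673 and 735 without ZFP64-OE-labelled replicates 1 and 2, 587 without control-labelled replicate 2). Same-numbered libraries are not said to share a culture, and their deviations from the group means correlated at 0.0183, 0.0198 and 0.0968, so the block is an alternative only. List calls with the block were 3 of the thiamine diphosphate enzymes, 2 of them higher, and 1 of the kinases and phosphatases, lower. The block also gave 3 other vitamin carriers, 2 of them lower, 3 folate genes, 1 thiamine-handling gene and 0 pentose phosphate genes. Without control-labelled replicate 3 the other vitamin carriers had 2 calls, both lower, of which 1 was shared with the reported fit. DESeq2 called 2 thiamine diphosphate enzymes. With limma on FPKM at either pseudocount, 0 thiamine diphosphate enzymes, 1 folate gene and 0 other vitamin carriers were called. With 1 library left out the calls were 0 to 3 thiamine diphosphate enzymes, 0 to 1 kinases and phosphatases, 0 to 3 folate genes, 0 to 2 other vitamin carriers, 1 thiamine-handling gene and 0 pentose phosphate genes. The PDK3 log2 fold change was -0.0268 and -0.0241 with limma at the lower and higher pseudocount, and -0.0565 to 0.11 with 1 library left out. The causes were not tested. THTPA, the member with the fewest counts, has the widest error of the 5.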
